A study of Mus musculus with 6 samples.

Results

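The genes described here are 10 transcription factor genes of the osteoblast lineage, Sp7, Runx1, Dlx3, Dlx5, Dlx6, Msx1, Msx2, Twist1, Twist2 and Sox9, taken by name. All 10 were measured, each by the 1 probe set that the platform annotation pairs with that symbol alone, among 19938 genes tested. The RNA came from bone marrow stromal cells (BMSCs), adherent marrow cells that can form bone or fat, of 6-month-old C57BL/6 mice. The WT group had 3 arrays from wild-type mice, and the KO188 group had 3 arrays from mice in which miR-188 was knocked out. Cells of both groups were kept in osteogenic medium with 10% serum and, as inducers, 0.05 mM ascorbate-2-phosphate, 10 mM beta-glycerophosphate and 100 nM dexamethasone. The sample titles call the 3 arrays of each group biological replicates. The labels do not say whether the knockout was whole-body, whether mice were pooled, or whether replicates came from separate mice or separate cultures. How much of the variation between mice enters the p-values is thus unknown, and they reflect no more than the spread among these arrays. No label names a batch that holds both groups, so genotype cannot be told apart from any culture or batch effect that all arrays of 1 group share.

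The series title sets the microRNA in the choice between osteoblast and adipocyte fate. A microRNA pairs with messenger RNAs mainly through its seed, bases 2 to 8. The mature arms of the knocked-out gene are shown because the knockout is the only labelled difference between the groups. The labels do not say which part of the locus was deleted. They are RefSeq sequences (build GRCm38.p6, chrX:7248031-7248051 and chrX:7247992-7248012, minus strand), 5′ to 3′ with the seed in capitals. Whether the 10 transcripts hold matches to these seeds was not tested.
mmu-miR-188-5p: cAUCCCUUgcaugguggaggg
mmu-miR-188-3p: cUCCCACAugcaggguuugca

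Osteoblasts form when stromal progenitors switch on the runt factor Runx2 and then the zinc finger factor Sp7. Homeobox factors of the Dlx and Msx families bind the same bone genes, Dlx proteins mostly as activators and Msx proteins mostly as repressors. Twist proteins, of the basic helix-loop-helix (bHLH) class, hold back Runx2 in early cells, and Sox9 is the master factor of cartilage. Runx2 itself was not analysed here.

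Of the 10 factors, 4 were higher in KO188 (Dlx5, Sox9, Twist1 and Sp7), 3 were lower (Twist2, Runx1 and Msx2), and Dlx3, Dlx6 and Msx1 did not pass the test. The test was limma's moderated comparison over all tested genes, with a Benjamini-Hochberg adjusted p under 0.05. Over all tested genes 29.8% passed, 13.3% as higher and 16.5% as lower, against 7 of 10 factors. That share includes dim genes. In a fit without genes under the median level, 6217 genes passed, which was most of the genes in that fit. Among the factors in it 6 passed and Msx1 did not. Sp7, Dlx3 and Dlx6 were not in that fit. The 29.8% is thus a low background for brighter genes. The 7 of 10 factors therefore cannot be read as an excess over genes of like level. The same limit holds for each list set beside 29.8% below. Of all calls 44.5% were higher in KO188, and 30.8% with each array centred on its median. The log2 changes of the 10 factors ran from -0.31 to 0.74, and the median was 0.07, beside a median of -0.01 over all tested genes. The 3 arrays of 1 group lay entirely above or below the other 3 for 8 factors, which held for 41.5% of all tested genes. The factors were listed with results of these data known, and no set test was made. The calls of Dlx5, Sox9, Twist1 and Twist2 held with each of the 6 arrays left out. Those of Sp7, Runx1 and Msx2 did not, and 4 of the 10 factors passed without WT replicate 2 or without WT replicate 3.

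**Figure D1:**
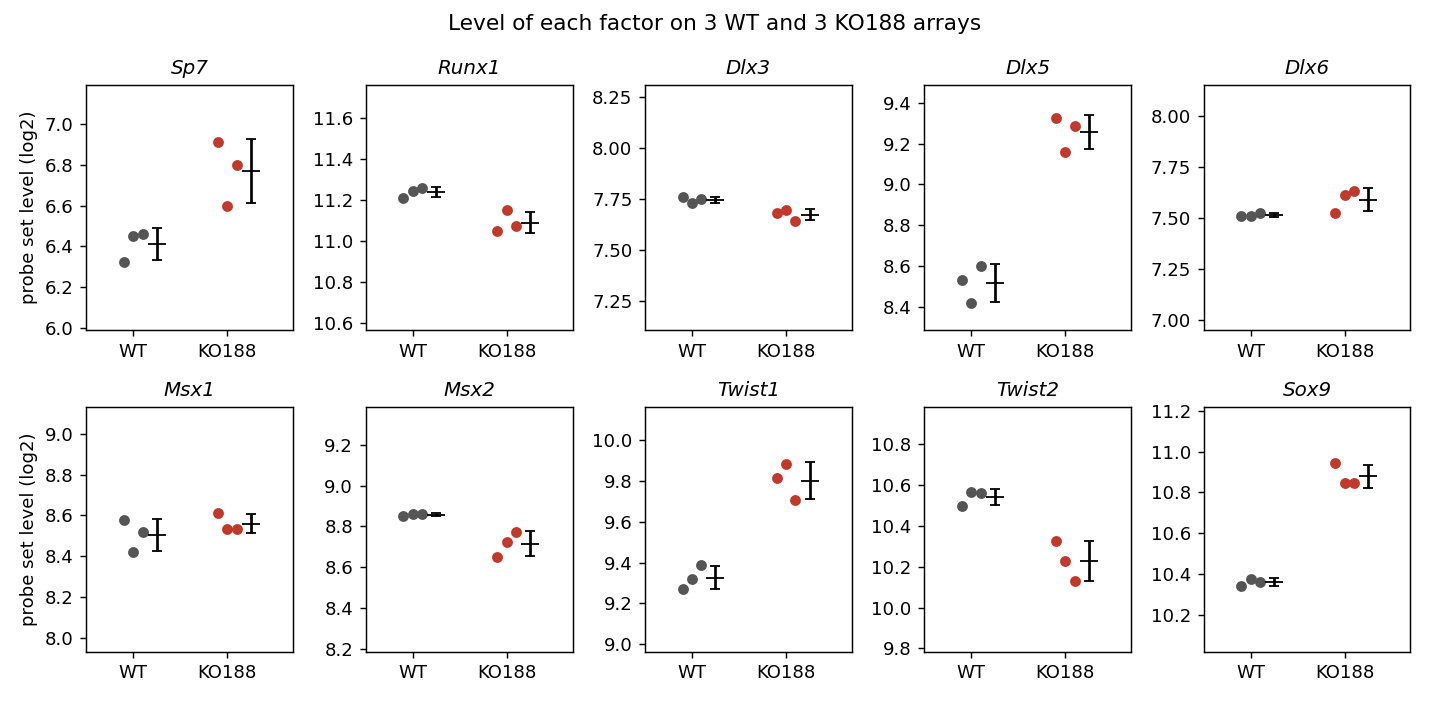
Probe set level (log2) of each factor on the 3 WT arrays (grey) and the 3 KO188 arrays (red), with the mean and SD of each group in black; every panel spans the same number of log2 units around its gene's mean. Dlx5, Sox9, Twist1 and Sp7 sit higher on all 3 KO188 arrays, Twist2, Runx1, Msx2 and Dlx3 sit lower, and the groups overlap or touch for Dlx6 and Msx1.

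Sp7, also called osterix, is needed for progenitors to become bone-forming cells. Its level was 6.32, 6.45 and 6.46 in WT and 6.91, 6.60 and 6.80 in KO188 (log2, replicates 1 to 3). All 3 KO188 arrays were above all 3 WT arrays, and the KO188 arrays were spread more widely. The means were 6.41 ± 0.08 (SD, n = 3) and 6.77 ± 0.16 (n = 3), which differed by 0.36 on the log2 scale (SE 0.083, limma adjusted p = 0.018). A rough guide to unexpressed genes was taken from 1190 smell and pheromone receptor genes, 95% of which had mean levels at or under 6.73. The WT mean of Sp7 lay under this receptor guide. The KO188 mean lay just above it, so the size of the change is inexact. The Sp7 call was lost without WT replicate 1 (limma adjusted p = 0.070), WT replicate 2 (0.054), WT replicate 3 (0.052) or KO188 replicate 3 (0.069), and in a plain two-group test without moderation (0.084).

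Runx1 encodes the runt domain factor best known from blood cell formation, which skeletal progenitors also use. It measured 11.21, 11.25 and 11.26 in WT and 11.05, 11.15 and 11.07 in KO188. Every KO188 array was below every WT array, by a small margin for KO188 replicate 2. The log2 difference was -0.15 (SE 0.035, limma adjusted p = 0.019), from 11.24 ± 0.02 (SD, n = 3) to 11.09 ± 0.05 (n = 3). The call was lost without WT replicate 2 (limma adjusted p = 0.065), WT replicate 3 (0.066) or KO188 replicate 3 (0.063). Ptprc and Spi1, defining genes of blood cells, were under that guide on average in each group (Ptprc 6.25 in WT and 6.23 in KO188, Spi1 6.22 and 6.27). Of 23 measured blood cell markers 1 fell, Cd34 (log2 change -0.92), which stromal cells also express, and 0 rose (limma), while 4 were lower and 0 higher with median centring or quantile normalization. The summed log2 level of the 23 was 156.8 to 157.2 in WT and 154.9 to 156.2 in KO188. Cd34, which alone fell by 0.92, is part of this sum, and no sum without it was made. Of the 23 markers, 14 had mean levels at or under the receptor guide.

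Of the 5 homeobox factors 1 rose, 1 fell and 3 did not pass. Dlx5, which switches on bone matrix genes, showed the largest change of the 10 factors. Its level was 8.53, 8.42 and 8.60 in WT and 9.32, 9.16 and 9.29 in KO188. The lowest KO188 array was well above the highest WT array, and the spread within the groups was alike. Dlx5 rose 1.67-fold, from 8.52 ± 0.09 (SD, n = 3) to 9.26 ± 0.09 (n = 3), a log2 change of 0.74 (95% confidence interval 0.59 to 0.89, limma adjusted p = 2.2e-04). Its change was larger in size than that of 98.0% of tested genes.

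Dlx6 is the neighbour of Dlx5 in the genome and acts with it in limb and skull development. It measured 7.51, 7.51 and 7.52 in WT and 7.52, 7.62 and 7.63 in KO188. KO188 replicate 1 was level with WT, while the other KO188 arrays were higher. The log2 change of 0.08 (95% confidence interval -0.01 to 0.16) did not pass (limma adjusted p = 0.17), and it passed without KO188 replicate 1 (0.11, adjusted p = 0.024). Dlx3, a factor of teeth, hair and bone, measured 7.76, 7.73 and 7.75 in WT and 7.68, 7.69 and 7.64 in KO188. All KO188 arrays were slightly below WT, but the log2 change of -0.07 did not pass (SE 0.027, limma adjusted p = 0.097). With each array centred on its median Dlx3 was -0.12 (adjusted p = 0.023) and with quantile normalization it was also -0.12 (adjusted p = 0.0093), so the call depended on the scaling.

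Msx2, a repressor that keeps skull progenitors immature, was lower in KO188. Its level was 8.85, 8.86 and 8.86 in WT and 8.65, 8.72 and 8.77 in KO188. The WT arrays were nearly equal, and all KO188 arrays were below them. The log2 change was -0.14 (SE 0.036, limma adjusted p = 0.026). The Msx2 call was lost without any 1 of the 3 WT arrays (limma adjusted p = 0.072, 0.080 and 0.076 for replicates 1 to 3), without KO188 replicate 2 (0.061) and in the plain two-group test (0.061). Msx1, its close relative in tooth and skull, measured 8.58, 8.42 and 8.52 in WT and 8.61, 8.53 and 8.54 in KO188. These groups overlapped, and the log2 change of 0.05 (95% confidence interval -0.06 to 0.17, limma adjusted p = 0.46) did not pass. Its sign turned with quantile normalization (-0.0068).

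The Twist genes changed in opposite directions. Twist1, which restrains Runx2 in early osteoblasts, measured 9.27, 9.32 and 9.39 in WT and 9.81, 9.88 and 9.71 in KO188. All KO188 arrays were higher, and Twist1 rose 1.39-fold (log2 change 0.47, 95% confidence interval 0.35 to 0.60, limma adjusted p = 8.3e-04), from 9.33 ± 0.06 (SD, n = 3) to 9.80 ± 0.09 (n = 3). Twist2, first described in dermis and with like effects on Runx2, measured 10.50, 10.57 and 10.56 in WT and 10.32, 10.23 and 10.13 in KO188. All KO188 arrays were lower, and Twist2 fell by 0.31 on the log2 scale (95% confidence interval -0.44 to -0.19, limma adjusted p = 0.0047), from 10.54 ± 0.04 (SD, n = 3) to 10.23 ± 0.10 (n = 3). Both calls held in each of 15 alternative settings.

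Sox9 commits progenitors to cartilage and is also found in stromal progenitors. It measured 10.34, 10.38 and 10.36 in WT and 10.94, 10.85 and 10.85 in KO188. The groups were far apart relative to their spread, with means of 10.36 ± 0.02 (SD, n = 3) and 10.88 ± 0.06 (n = 3). Sox9 rose 1.43-fold (log2 change 0.52, 95% confidence interval 0.44 to 0.60, limma adjusted p = 9.0e-05). Of the 23 measured partners and cartilage targets of Sox9, 1 rose and 0 fell, or 4.35% beside 29.8% of all tested genes, and the median log2 change was 0.04. Of the 23, 6 had mean levels at or under the receptor guide. The gene that rose was Sox5 (0.19, limma adjusted p = 0.029), which works with Sox9 on cartilage genes. That call was lost in 8 of 14 alternatives, among them median centring, quantile normalization and the fits that left out replicate 1 or 2 of either group (adjusted p from 0.014 to 0.091 over the 14). Col2a1, the cartilage collagen, measured 8.57 ± 0.04 in WT and 8.59 ± 0.15 in KO188 (SD, n = 3 each), and Acan, the cartilage proteoglycan aggrecan, 6.75 ± 0.02 and 6.71 ± 0.05, close to the receptor guide. The 8 chondrocyte markers are all among these 23 genes, and 4 of the 8 had mean levels at or under the receptor guide. Of the 8 markers 0 passed limma's test, 0 had an unadjusted p under 0.05 and 0 passed the plain two-group test. Their summed log2 level was 52.8 to 53.1 in WT and 52.6 to 53.6 in KO188.

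**Figure D2:**
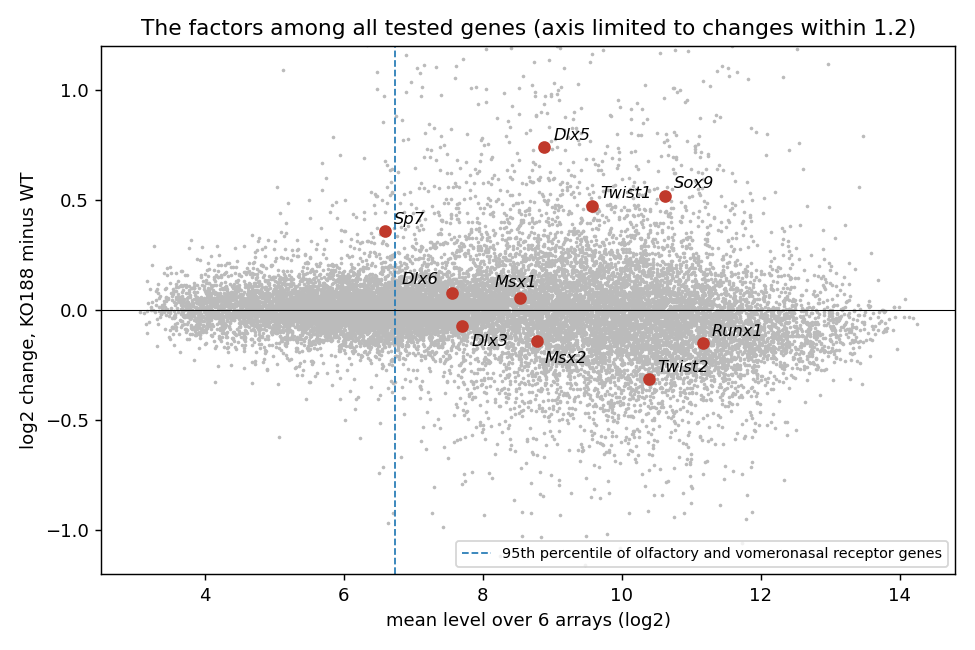
Log2 change (KO188 minus WT) against the mean log2 level over 6 arrays for all tested genes (grey) and the 10 factors (red); the dashed line marks the receptor guide at 6.73, and 181 genes with changes beyond 1.2 lie outside the axis. Sp7 lies just left of the guide and the other 9 factors right of it, with Dlx5, Sox9 and Twist1 in the upper part of the cloud.

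Related factors were then compared within arrays, by the difference between their log2 levels on each array. This difference shifted by 0.79 from WT to KO188 for Twist1 minus Twist2, 0.81 for Dlx5 minus Dlx3, 0.66 for Dlx5 minus Dlx6, 0.15 for Dlx6 minus Dlx3 and 0.20 for Msx1 minus Msx2. For each of the 5 pairs the 3 KO188 arrays lay above the 3 WT arrays. The two-sided exact permutation test over 20 assignments gave p = 0.10 for each pair, the smallest that 3 against 3 arrays allow (Benjamini-Hochberg adjusted p = 0.10), so no pair could pass. Different probes can also compress a change to different degrees.

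The stretches upstream of the start sites are shown for the Twist and Msx pairs, whose members differed in direction or call. They come from RefSeq (build GRCm38.p6) and run 5′ to 3′ over the 250 bases before the start. RefSeq promoter entries matched 5 of the 10 factors, Msx1, Msx2, Runx1, Twist1 and Twist2. Capitals mark matches on either strand to the E-box CANNTG, which bHLH proteins bind, the homeobox cores TAATTA and TAATTG, or the runt core TGTGGT. No match shown overlaps another.
Twist1 (chr12:33957421-33957670, plus strand): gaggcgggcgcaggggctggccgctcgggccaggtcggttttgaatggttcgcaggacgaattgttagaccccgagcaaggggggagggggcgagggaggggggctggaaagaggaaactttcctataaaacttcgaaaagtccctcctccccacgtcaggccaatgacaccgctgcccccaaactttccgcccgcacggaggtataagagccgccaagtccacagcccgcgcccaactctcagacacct
Twist2 (chr1:91801211-91801460, plus strand): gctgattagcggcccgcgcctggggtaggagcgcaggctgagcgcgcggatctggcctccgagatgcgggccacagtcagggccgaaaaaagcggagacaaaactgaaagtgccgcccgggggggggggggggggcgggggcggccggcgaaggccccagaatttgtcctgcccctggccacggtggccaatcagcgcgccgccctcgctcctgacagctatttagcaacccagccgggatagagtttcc
Msx1 (chr5:37824586-37824835, minus strand): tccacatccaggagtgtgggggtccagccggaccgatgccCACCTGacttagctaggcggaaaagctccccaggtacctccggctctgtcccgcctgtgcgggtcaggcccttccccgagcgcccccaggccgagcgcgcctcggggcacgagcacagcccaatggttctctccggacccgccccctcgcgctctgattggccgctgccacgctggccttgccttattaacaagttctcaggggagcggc
Msx2 (chr13:53472781-53473030, minus strand): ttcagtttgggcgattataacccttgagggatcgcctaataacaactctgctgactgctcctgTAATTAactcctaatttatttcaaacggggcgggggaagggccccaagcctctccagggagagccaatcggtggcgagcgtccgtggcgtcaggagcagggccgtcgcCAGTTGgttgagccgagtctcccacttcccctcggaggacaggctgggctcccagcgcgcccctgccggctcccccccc

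The Msx1 stretch held 1 E-box, 210 bases before the start. The Msx2 stretch held 1 E-box at 79 bases and 1 TAATTA core at 187 bases before the start. Neither Twist stretch held any of the 4 motifs. Among 32851 promoter windows of the same length, 66.2% held the E-box, 4.84% TAATTA, 7.17% TAATTG and 14.0% the runt core. The 4 stretches were rich in G and C, at 62.4% for Twist1, 68.8% for Twist2, 68.0% for Msx1 and 61.6% for Msx2, against a median of 52.4% over all windows. They held 18, 23, 20 and 16 CpG pairs, against a median of 6. A motif match is a description of the letters and says nothing about binding in these cells.

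By gene order in the same RefSeq assembly, Dlx5 lies beside Dlx6, Dlx3 beside Dlx4, and Sp7 beside Sp1. The Twist genes lie beside class II deacetylase genes, Twist1 beside Hdac9 and Twist2 beside Hdac4. Hdac9, which the study is known to have followed as a miR-188 target, did not pass the test (log2 change 0.06, limma adjusted p = 0.26) at a mean level of 6.42, under the receptor guide, and nor did Hdac4 (0.09, adjusted p = 0.11). Of the 18 tested genes that flank the factors and are no factor of the list, 4 passed, all as lower in KO188, or 22.2% beside 29.8% of all tested genes. They were Itga3 beside Dlx3 (-0.44), Sdhaf3 beside Dlx5 (-0.21), Asb1 beside Twist2 (-0.16) and Aaas beside Sp7 (-0.13). No flanking gene of Dlx5, Twist1 or Sox9 outside the list rose past the test.

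Other genes of the same families were read beside the factors. Of 17 measured relatives 1 rose and 1 fell, or 11.8% beside 29.8% of all tested genes, with a median log2 change of -0.04. Runx3, the runt factor of lymphocytes and cartilage, was 11.32 ± 0.04 (SD, n = 3) in WT and 11.45 ± 0.04 in KO188 (log2 change 0.13, limma adjusted p = 0.024). Its call was lost with median centring and when replicate 1 or 2 of either group was left out (adjusted p from 0.0040 to 0.12 over 15 alternatives, of which it failed 6). Sox8, a close relative of Sox9, was lower (-0.20, adjusted p = 0.013), a call lost without WT replicate 3 or KO188 replicate 3 (adjusted p up to 0.051 over 15 alternatives). Cbfb, the shared partner of the runt factors, did not pass (-0.06, adjusted p = 0.19). Among the other Dlx genes Dlx1 (0.02), Dlx2 (-0.09) and Dlx4 (-0.04) did not pass, and nor did Msx3 (-0.0011) or Sox10 (-0.04). Of the Sp family beside Sp7, Sp1 (-0.05), Sp3 (-0.04), Sp4 (0.04), Sp5 (-0.02), Sp6 (-0.02), Sp8 (-0.07) and Sp9 (-0.05) did not pass. The Twist relatives Hand1 (-0.04) and Hand2 (-0.07) did not pass either. A difference between the factors and their relatives was not tested.

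**Figure D3:**
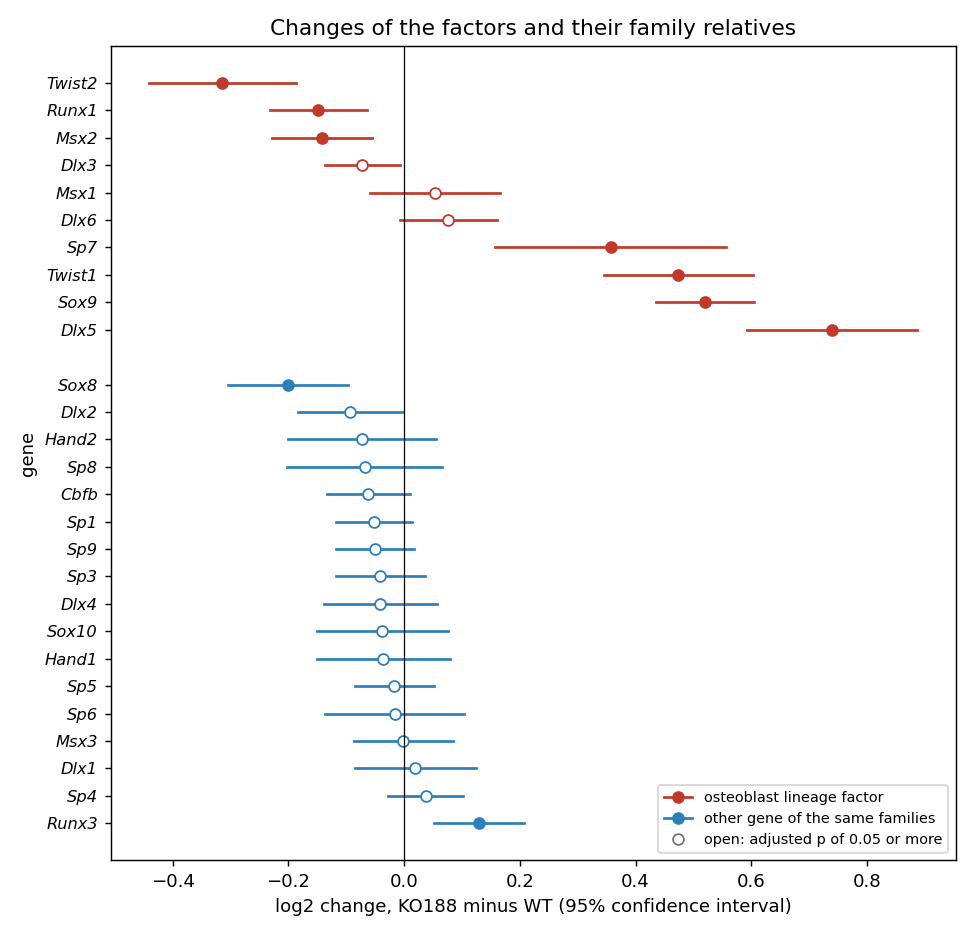
Log2 change (KO188 minus WT) with its 95% confidence interval for the 10 factors (red) and 17 family relatives (blue); filled points passed limma's test and open points did not. The factors run from -0.31 (Twist2) to 0.74 (Dlx5) and the relatives from -0.20 (Sox8) to 0.13 (Runx3).

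Twist proteins act as pairs with E proteins, and Id proteins block such pairs by binding E proteins. Of 7 measured genes of these classes 3 fell and 0 rose, or 42.9% beside 29.8% of all tested genes. With median centring 4 were lower, and with quantile normalization 3 were lower and 1 higher. Id2 fell by 1.12 (limma adjusted p = 2.2e-05) and Id1 fell by 0.30 (adjusted p = 0.0014) on the log2 scale. The E protein gene Tcf3 fell by 0.12 (adjusted p = 0.024), a call lost in 6 of 15 alternatives, those without any 1 of the WT arrays or KO188 replicate 2 or 3 among them (adjusted p up to 0.072). Tcf4 (0.05), Tcf12 (-0.06), Id3 (0.08) and Id4 (-0.03) did not pass.

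Bone morphogenetic proteins (BMPs) are known inducers of Dlx5, Msx2 and Sp7. The 21 measured BMP pathway genes were ligands, receptors, antagonists, Smad genes and Smurf genes. Of these 6 rose and 2 fell, or 38.1% beside 29.8% of all tested genes. With median centring 3 were higher and 6 lower, and with quantile normalization 5 and 5, so the balance depended on the scaling. Bmp4, a ligand, rose by 0.32 (limma adjusted p = 1.2e-04), and Smurf2, a ubiquitin ligase of the pathway, rose by 0.25 (adjusted p = 5.9e-04). The antagonist genes Grem1 (0.18) and Fst (0.17) also rose, as did the inhibitory Smad genes Smad6 (0.14) and Smad7 (0.12). Grem1, Fst, Smad6 and Smad7 were named after their values were seen. Smad9, a BMP signal transducer, fell by 0.41 (adjusted p = 4.3e-04), and Bmpr2, a receptor, fell by 0.16 (adjusted p = 0.0042).

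Of 51 other transcription regulators of the lineage 17 rose and 10 fell, or 52.9% beside 29.8% of all tested genes, with a median log2 change of -0.01. Mean levels of 50 of the 51 lay above the receptor guide. Most genes passed in the fit without genes under the median level. The 52.9% therefore cannot be read as an excess over genes of like level. The balance depended on the scaling, with 14 higher and 17 lower under median centring and 16 higher and 14 lower under quantile normalization. The 4 with the lowest p were Maf, a leucine zipper factor (1.01, limma adjusted p = 1.0e-05), Osr1, a zinc finger factor of limb mesenchyme (0.64, adjusted p = 2.4e-05), Runx1t1, a corepressor (0.56, adjusted p = 6.3e-05), and Zfp521, which restrains Runx2 (0.45, adjusted p = 6.6e-05). Sox11, a progenitor factor named after its values were seen, followed with a nearly equal p and fell by 0.62 (adjusted p = 6.6e-05).

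Of 30 measured genes of bone-forming cells, listed as target genes, 9 rose and 6 fell, or 50% beside 29.8% of all tested genes. Their median log2 change was 0.01. Mean levels of 25 of the 30 lay above the receptor guide, so 50% cannot be read as an excess over genes of like level either. Whether the 10 factors act on each of these genes was not tested. Alpl, the alkaline phosphatase of mineral deposition, measured 9.40, 9.33 and 9.39 in WT and 11.48, 11.42 and 11.46 in KO188. Omd, which encodes the bone proteoglycan osteomodulin, measured 7.04, 6.98 and 6.86 in WT and 8.59, 8.61 and 8.47 in KO188. Both were higher on every KO188 array by more than any of the 10 factors, with log2 changes of 2.08 (limma adjusted p = 8.6e-08) and 1.60 (adjusted p = 6.8e-06). Tnfrsf11b, the osteoclast inhibitor osteoprotegerin, rose by 0.94 (adjusted p = 9.0e-06), while Pdpn, a gene of early osteocytes, fell by 0.70 (adjusted p = 2.1e-05). Spp1, Enpp1 and the Bglap genes of this list were not analysed here.

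The labelled cell type was checked against its markers. Of 16 measured stromal and osteoblast markers 9 rose and 3 fell, or 75% beside 29.8% of all tested genes. Alpl, Postn, Col1a1, Col1a2 and Sparc among these markers are also in the list of target genes above. The 3 that fell, named after their values were seen, were Nt5e (-0.85), Cd44 (-0.33) and Itgb1 (-0.27). Of the 16, 15 lay above the receptor guide, Col1a1 (12.91 in WT, 13.11 in KO188) and Pdgfra (9.92 and 10.79) among them. Lepr (5.18 and 5.12) lay under it and Thy1 (6.88 and 6.79) close to it, both named after their values were seen. The summed log2 level of the 16 was 169.0 to 169.5 in WT and 172.5 to 173.0 in KO188. Without Alpl, which alone rose by 2.08, the sum of the other 15 was 159.7 to 160.1 in WT and 161.1 to 161.6 in KO188. The part of these markers in the changes of the factors was not tested. Of 13 adipocyte markers 2 fell, Pparg (-1.86) and Fabp4 (-0.33), or 15.4% beside 29.8% of all tested genes. Under median centring 4 were lower. Adipoq, the gene of a hormone of mature fat cells, lay at 5.37 in WT and 5.36 in KO188, under the receptor guide. The summed adipocyte level was 95.8 to 96.3 in WT and 93.5 to 94.7 in KO188. Pparg, which alone fell by 1.86, is part of this sum, and no sum without it was made. Of 6 smooth muscle markers Cnn1 (-0.73) and Tagln (-0.42) fell, or 33.3% beside 29.8% of all tested genes. Acta2 of this list, named after its values were seen, did not pass and was bright (13.86 in WT, 13.82 in KO188). The summed smooth muscle level was 56.2 to 56.4 in WT and 55.0 to 55.2 in KO188. Of 10 endothelial markers Kdr rose (0.24, limma adjusted p = 0.021), or 10% beside 29.8% of all tested genes. The Kdr call was lost in 6 of 14 alternatives, those without any 1 of the WT arrays or KO188 replicate 1 among them. Cdh5 (6.85 and 6.76) did not pass. Kdr lay under the receptor guide in WT (6.40) and in KO188 (6.63), 1 of 7 among the 10 markers with a 6-array mean at or under it. The summed endothelial level was 64.8 to 65.0 in WT and 64.4 to 65.0 in KO188. In such bulk RNA fewer cells of a type and less RNA per cell cannot be told apart.

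**Figure D4:**
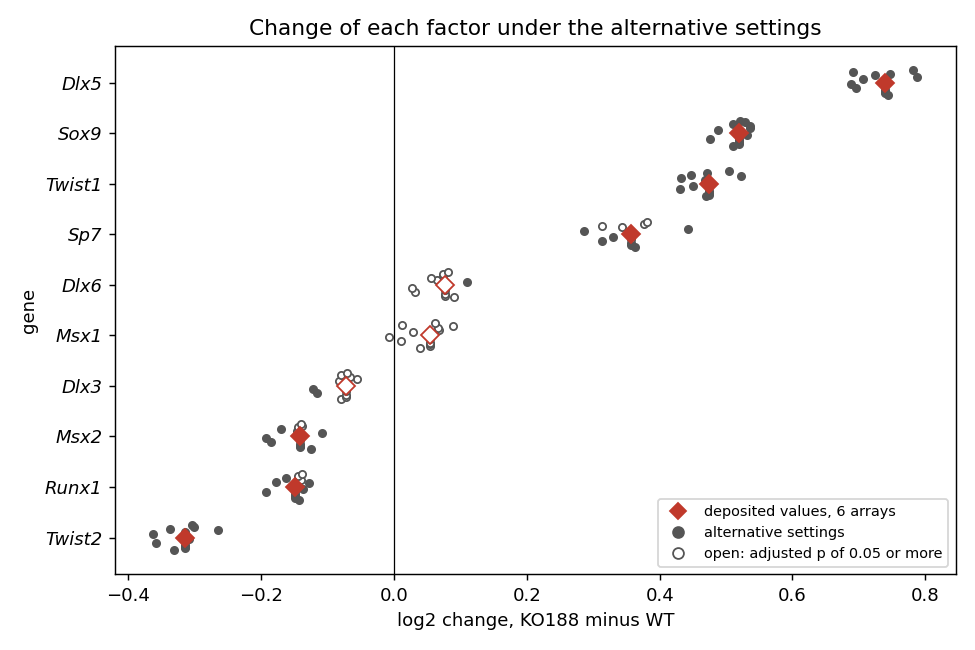
Log2 change (KO188 minus WT) of each factor on the deposited values of 6 arrays (red diamonds) and under up to 15 alternative settings (grey circles); open symbols have an adjusted p of 0.05 or more. Dlx5, Sox9, Twist1 and Twist2 are filled throughout, Sp7, Runx1 and Msx2 are mixed, and the points of Msx1 lie on both sides of 0.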

How the data were processed

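The authors deposited log2 values of 35556 probe sets on 6 arrays. Per the submitters' processing notes, Affymetrix Expression Console, Partek and RMA were used, with no version or role. RMA equalises arrays and compresses dim signals. In the sources used here the genome build was not given. Array medians of the deposited values still ran from 7.43 to 7.50, and scaling the arrays again changed some calls. Arrays correlated at r = 0.9988 to 0.9993 within groups and 0.9909 to 0.9912 between groups, across genes, which are not independent replicates. The number of arrays limits the precision.

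GEO's platform annotation gave 1 symbol to 21789 probe sets, and 1621 with several symbols and 12146 not listed were unnamed. The brightest probe set of each gene was used (19938 genes, no filter). Groups came from the sample titles. KO188 was compared with WT in limma 3.58.1 (R 4.3.3; lmFit, eBayes, no covariate), with p-values adjusted by Benjamini-Hochberg over the 19938 genes. The fit was tested on simulated data. Figures used matplotlib 3.10.9. The alternatives were other scalings, filters, probe set choices, variance models, a replicate block and each array left out.

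The factors and lists were chosen with earlier results of these data known. Named genes are all 10 factors, all family relatives, the 4 lowest p of other lists past the test, all calls of lists with 5 or fewer, and 8 defining markers. Some further genes are marked above as named after their values were seen. The receptor guide, the flanking genes and the motifs were chosen after values were seen.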

Additional observations from a re-analysis of the deposited data

How the results depend on the processing

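Over up to 15 alternatives the sign of each factor held except for Msx1 with quantile normalization (log2 change -0.0068, adjusted p = 0.93). With 1 array left out the number of factors past the test ran from 4 to 8, beside 7, and that of family relatives from 1 to 2, beside 2. The factor count fell to 4 without WT replicate 2 and without WT replicate 3. Family relatives past the test numbered 4 with median centring and 1 with the replicate block; the cause was not tested. The counts of other regulators (24 to 31), target genes (12 to 15) and all tested genes (4835 to 6603) stayed within 1.5 times of the values above as totals, but lower regulators numbered 17 with median centring, beside 10. The 6603 are probe sets, each tested on its own. Without genes under the median level 6217 genes passed out of fewer tested. The totals of these fits therefore cannot be read as equal shares. The 5 paralog differences kept their direction in each alternative run for them. Of all calls, 30.8% were higher in KO188 with median centring and 39.1% with quantile normalization, beside 44.5%. Sp7, Dlx3 and Dlx6 fell below the level filter and have no value there. The labels do not say whether same-numbered samples were paired. Deviations of same-numbered arrays from their group means correlated at 0.018, 0.010 and -0.028 over genes, which are not independent. With 3 arrays per group these values show no sign of pairing but cannot settle it. With the replicate block 5019 genes and 6 of the factors passed, while Msx2 (adjusted p = 0.051) and the relative Runx3 did not. Changes of dim genes such as Sp7 can be compressed, which was not tested here.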
